A study of Homo sapiens with 6 samples.

Results

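The baseline transcriptome of wild-type LN229 cells was described from the 3 RNA libraries of genotype WT among the 6 samples of the series. LN229 is an established human glioblastoma cell line, and WT cells were the parental cells, labelled PARP3+/+ and described as proliferating. The other group carries a disruption of PARP3 and was not used. All cells were grown in MEM medium with fetal bovine serum and gentamicine, and the study describes the WT samples as biological replicates of RNA extracts. They are 3 extracts of a single line, so the spread between them is that of 1 line in culture and not that of tumours or patients. No conditions were compared, so no test was made and no p-value is given.

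Glioblastoma is the most aggressive primary brain tumour of adults, and its cells often carry changes in receptor tyrosine kinases, in the PI3K pathway below them, and in the RB pathway that controls the cell cycle. Receptor tyrosine kinases are cell-surface proteins that bind growth factors and pass the signal on by phosphorylating tyrosines inside the cell. Tumour cells of this kind express, in varying mixtures, genes of astrocytes, of the oligodendrocyte lineage, of neural stem cells and of mesenchymal cells, and cell lines kept in serum can lose some of these genes.

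Levels are given as counts per 1000000 counts on genes (CPM). Where genes are compared with each other, CPM was divided by transcript length in kilobases (CPM per kb), first by the median length of the transcripts of each gene, which the authors list beside the counts, and then by the length of the canonical transcript in GENCODE 44. Where 3 values are given together, they are those of WT replicates 1, 2 and 3 in that order, and ± is the SD over these 3 libraries (n = 3). A gene is termed silent where it had 3 counts or fewer in every library.

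The libraries held 35582892, 42539536 and 40480954 counts on genes, so that 3 counts were worth 0.0843, 0.0705 and 0.0741 CPM, and levels below that could not be told from no reads. Each gene listed had at least 1 count over the libraries of the series, so shares below are shares of such genes. Of 33841 genes listed, 18723 had over 3 counts in each of the libraries, among them 13514 of 16508 protein-coding genes (81.9%). A mean of at least 10 CPM was reached by 59.0% of the listed protein-coding genes and 100 CPM by 15.3%. A further 11593 genes, 2209 of them protein-coding, were silent. The median level of the detected protein-coding genes was 31.5 CPM. WT replicate 1 stood apart from the other libraries. Among the 9977 genes with a mean of at least 10 CPM, replicate 1 was the farthest of the libraries from the mean of the other 2, on the log2 scale, for 6874 genes (68.9%), replicate 2 for 1976 and replicate 3 for 1127. In replicate 1, genes of the endoplasmic reticulum stress response were higher and genes of DNA replication and cell division were lower, and levels are therefore given library by library where replicate 1 differed most, and for leading genes also as the mean of replicates 2 and 3.

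The most counted gene was RN7SL2, a copy of the 7SL RNA that forms the scaffold of the signal recognition particle, which targets growing secretory proteins to the endoplasmic reticulum. This single RNA of 300 bases held 1.44% ± 0.134 of all counts. RN7SL2 was counted 562591, 559032 and 576726 times, which is 15811, 13142 and 14247 CPM. Its neighbour in the 7SL family, RN7SL1, has 299 bases, of which 295 align with identical bases of RN7SL2 (98.3%). Of the 251 stretches of 50 bases, the length of the reads, in RN7SL2, 158 (62.9%) also occur in RN7SL1. RN7SL1 itself was not analysed here, so the level of RN7SL2 is uncertain in how reads of such copies were assigned.

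After RN7SL2, the most counted genes encoded glycolytic enzymes, cytoskeletal proteins, a translation factor and a chaperone. Reads of genes with close copies may be lost or shared, which limits this order. GAPDH, a glycolytic enzyme, stood at 4761, 5142 and 4964 CPM. The glycolytic enzymes ENO1 and PKM stood at 1995, 3239 and 2771 CPM and at 1821, 2708 and 2472 CPM, and both were lowest in replicate 1. The actins ACTG1 and ACTB, the building blocks of microfilaments, stood at 4480.2, 3797 and 3386 CPM and at 2163, 2864 and 2536 CPM, the first highest and the second lowest in replicate 1. VIM, the intermediate filament protein vimentin, was the most even of these genes, at 3810.2, 3827 and 3736 CPM, a coefficient of variation of 1.28%. FLNA, which crosslinks actin, stood at 3914, 3260.1 and 3185 CPM. EEF2, the elongation factor that moves ribosomes along mRNA, stood at 3858, 2659 and 2764 CPM. HSP90B1, a chaperone of the endoplasmic reticulum, stood at 3576, 1586 and 1777 CPM, and its rank rests on replicate 1, since the mean of replicates 2 and 3 was 1682. PYGB, the brain form of glycogen phosphorylase, stood at 2961, 1983 and 1948 CPM. MALAT1, a long noncoding RNA kept in the nucleus, stood at 3482, 1536 and 1853 CPM, again highest in replicate 1, with a mean of 1695 without it.

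**Figure D1:**
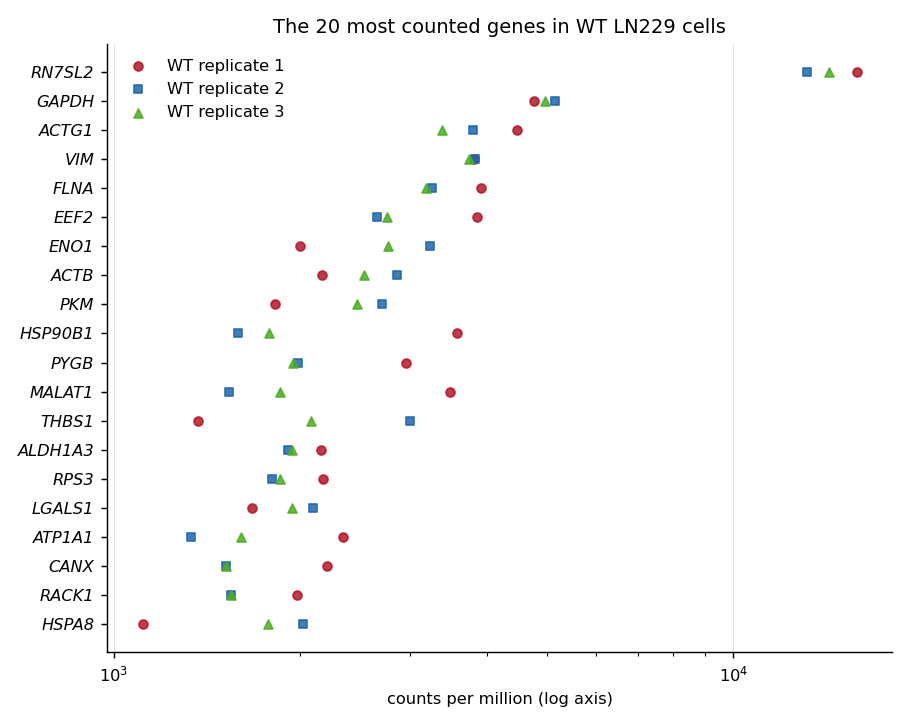
Level of the 20 genes with the most counts in WT LN229 cells, in CPM on a log axis; each symbol is 1 library. RN7SL2 lies between 13142 and 15811 CPM, GAPDH between 4761 and 5142, and HSP90B1 and MALAT1 are the genes here whose replicate 1 (circle) lies farthest above the others.

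Divided by the median transcript length, the protein-coding genes of highest level were EEF2 (5398 ± 1159 CPM per kb), THBS1 (3911 ± 1494), GAPDH (3836 ± 148), FLNA (3778 ± 439), LGALS1 (3685 ± 421), VIM (3609 ± 46.2), ACTB (3526 ± 489.9), ENO1 (3425 ± 807), HSP90B1 (3177 ± 1508), PYGB (3130.1 ± 783), CANX (2985 ± 679) and ALDH1A3 (2807 ± 188). THBS1 is thrombospondin 1, a secreted adhesion protein, LGALS1 is galectin 1, a sugar-binding protein, CANX is a chaperone of the endoplasmic reticulum, and ALDH1A3 is an aldehyde dehydrogenase that makes retinoic acid. The ranges of the libraries overlapped between each of these genes and the next in this order, so that neighbours did not differ beyond their spread. The order also depended on the length used. Among 13491 detected protein-coding genes with both lengths, the canonical transcript was 2.37 times as long as the median transcript at the median, and over 5 times as long for 22.5%. Divided by the canonical length, GAPDH came first (3856 ± 148 CPM per kb), followed by LGALS1 (3601 ± 412), S100A6, a calcium-binding protein (2726 ± 42.6), the ribosomal protein gene RPS21 (2562 ± 298) and TMSB10, which binds actin monomers (2560 ± 228). Only 4 genes were among the first 12 by both lengths, GAPDH, LGALS1, VIM and ENO1. FLNA was at 3778 ± 439 CPM per kb by the median length but at 406 ± 47.2 by the canonical one, and THBS1 at 276 ± 105 by the canonical one, since their canonical transcripts are far longer than their median ones.

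Counts were spread over many genes. The 10 most counted genes held 4.34% ± 0.241 of the counts, the first 100 held 14.5% ± 0.601 and the first 1000 held 45.5% ± 0.296. The 1247 most counted genes held 50% of all counts and the 6240 most counted held 90%. In all, 54 genes reached 1000 CPM, 2494 lay between 100 and 1000 CPM, 7429 between 10 and 100 CPM, and 3885 between 1 and 10 CPM.

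By annotated gene type, protein-coding genes held 96.4%, 97.2% and 97.0% of the counts in replicates 1, 2 and 3. The type misc_RNA, almost all of it RN7SL2, held 1.61%, 1.33% and 1.45%. Long intergenic noncoding RNAs held 0.862%, 0.544% and 0.591%, and 1249 of 3490 listed were detected. Of these, MALAT1, NEAT1 and NORAD were the most counted. NEAT1, the scaffold RNA of nuclear paraspeckles, stood at 1167, 507 and 577 CPM, with a mean of 542 without replicate 1, and NORAD, a cytoplasmic RNA that binds Pumilio proteins, at 657, 531 and 569 CPM. Antisense RNAs held 0.333% ± 0.0218 of the counts, with 1318 of 3289 detected at a median of 0.637 CPM, and processed pseudogenes held 0.0815% ± 0.0015, with 874 of 5055 detected. Reads of a pseudogene and its parent, or of an antisense gene and its partner, may not be told apart where the counting setting for strand is not stated. Genes annotated as ribosomal RNA had no detected member among 52, in libraries from which ribosomal RNA had been depleted and rRNA reads then removed. The labels name polyA RNA as the molecule, while the protocol describes libraries of total RNA. Histone genes of the HIST clusters, whose mRNAs mostly end without a poly(A) tail, held 1.06%, 1.58% and 1.37% of the counts, with 61 of 83 detected. The 84 ribosomal protein genes held 4.39%, 3.63% and 3.65%. The 13 mRNAs of the mitochondrial genome held only 0.0615%, 0.0331% and 0.0408%. MT-CO3, a subunit of cytochrome c oxidase, was the highest of them, also per kb of median length, at 272, 154 and 193 CPM, followed by MT-CO1 and MT-CO2 of the same enzyme at 182, 94.4 and 111 CPM and 71.5, 30.8 and 42.5 CPM. MT-ND3 and MT-ND4 of complex I stood at 26.9, 13.5 and 17.9 CPM and 15.6, 10.1 and 10.5 CPM, and MT-CYB of complex III at 15.7, 8.63 and 8.4 CPM, while MT-ND1, a subunit of complex I, stood at 3.06, 1.43 and 1.68 CPM. Whether reads of the mitochondrial genome were removed in processing is not stated, so these levels may fall short of those in the cells. Of the short noncoding RNAs in the list of RNAs without a poly(A) tail, RNU4-2 stood at 3.51, 2.07 and 2.99 CPM, RN7SK, RPPH1 and RNU12 were not analysed here, and RMRP, TERC, RNY3 and VTRNA1-1 were silent with 3 counts or fewer in each library. Whether the libraries and the counting kept such RNAs in full was not tested. Silent here therefore means few counts and not absence from the cells.

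Receptor tyrosine kinases were described as the whole family. Of 58 members, INSRR and RET were not analysed here. Of the other 56, 42 were detected, 34 reached a mean of 1 CPM, 24 reached 10 CPM and 10 reached 100 CPM, while 12 were silent. For comparison, 81.9% of all listed protein-coding genes were detected, 59.0% reached 10 CPM and 15.3% reached 100 CPM.

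In the ErbB and insulin receptor group, ERBB3 was high and EGFR was moderate. ERBB3 (chromosome 12, 56079857 to 56103505, hg38), a receptor for neuregulins whose own kinase is weak and which signals in pairs with other ErbB receptors, had 26955, 19375 and 24741 counts, or 758, 455 and 611 CPM. Replicate 1 was the highest and replicate 2 the lowest, and without replicate 1 the mean was 533 CPM. ERBB2, its usual partner, stood at 174, 172 and 167 CPM, with little difference between the libraries. EGFR (chromosome 7, 55019021 to 55211628, hg38), the receptor for EGF and TGFα that is often amplified in glioblastoma, had 2027, 2570 and 2251 counts, or 57, 60.4 and 55.6 CPM. ERBB4 had only 2.11, 1.46 and 1.28 CPM. The insulin-like growth factor receptor IGF1R stood at 123, 105 and 111 CPM and the insulin receptor INSR at 41.5, 39.2 and 41.6 CPM.

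Set against each other per kb of median transcript length, ERBB3 came first of the family at 921 ± 229 CPM per kb, with every library above every library of the next, DDR2. EGFR was 19th at 25.8 ± 1.11. Per kb of canonical length ERBB3 was second at 108 ± 26.9 and EGFR was 20th at 5.82 ± 0.25. In the order of 16508 protein-coding genes, ERBB3 was at place 121 and EGFR at place 6514 by the median length, and at places 636 and 8035 by the canonical length. The protein-coding genes nearest to EGFR in CPM per kb of median length were PPP6R2 (25.8 ± 2.05), MTSS1L (25.7 ± 3.28), DIO2 (25.7 ± 14.3), KIF5C (25.7 ± 4.67) and PISD (25.7 ± 1.03), over these 3 libraries.

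AXL led the family by the other length. AXL (chromosome 19, 41219203 to 41261766, hg38), a TAM-family receptor for GAS6, had 709.9, 811 and 695 CPM, which is 289 ± 24.7 CPM per kb of median length and 157 ± 13.4 per kb of canonical length. By the canonical length it was first, with every library above every library of ERBB3. By the median length it was the third and its range overlapped those of DDR2 and MET. Among the other TAM receptors, TYRO3 stood at 55.3, 68.1 and 68.4 CPM and MERTK at 0.59, 0.282 and 0.568 CPM. MET, the receptor for hepatocyte growth factor, stood at 191, 235 and 191 CPM, while its relative MST1R was silent with 3, 2 and 1 counts. The angiopoietin receptors TEK and TIE1, which mark endothelium, stayed below 0.4 CPM in every library.

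DDR2 and DDR1, receptors activated by collagen, stood at 391, 198 and 202 CPM and 138, 118 and 112 CPM. In replicate 1 DDR2 was at 1.96 times the mean of the others, and its second place per kb of median length (374 ± 156 CPM per kb) rests on that library, since its level in replicates 2 and 3 lay within the range of AXL. By canonical length it was eighth (26.1 ± 10.9). Of the 14 Eph receptors, which bind ephrins on neighbouring cells, 10 were detected, against 81.9% of all listed protein-coding genes. EPHA2 was the highest at 217, 228 and 207 CPM (260.1 ± 13 CPM per kb of median length), followed by EPHB3 at 104 ± 8.61 and EPHB4 at 50.5 ± 1.2 CPM per kb. EPHA4, EPHA3 and EPHB2 followed at 36.6 ± 7.2, 17.8 ± 3.2 and 4.12 ± 0.795 CPM per kb of median length. EPHA1, EPHA8, EPHA10 and EPHB6 were silent, with 0 or 1 count in each library.

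Receptors for PDGF, which mark oligodendrocyte precursors and mural cells, were low. PDGFRA stood at 5.59, 4.91 and 7.07 CPM and PDGFRB at 3.68, 3.36 and 4.27 CPM. In the same group FLT1, a receptor for VEGF, was high at 159, 150.1 and 160.1 CPM, while KDR, the main signalling VEGF receptor of endothelium, had 0.646, 0.282 and 0.296 CPM. KIT had 4, 3 and 4 counts, CSF1R, the macrophage receptor, had 3, 2 and 3, and FLT3 and FLT4 had 0, 0 and 1 each. FGFR1 stood at 50.3, 30.2 and 33.2 CPM, FGFR3 at 35.4, 43.7 and 45.9 CPM and FGFR4 at 15.8, 20.7 and 21 CPM, against 1.07, 1.58 and 1.28 CPM for FGFR2. The neurotrophin receptors were at most 2.09 CPM in any library, with NTRK2 at 1.74, 2.09 and 1.98 CPM. Of the Wnt-linked receptors, RYK stood at 96.9, 113 and 109 CPM and PTK7 at 76.9, 75.2 and 84.6 CPM, ROR1 at 3.54, 3.57 and 3.61 CPM, and ROR2 was silent, as was MUSK, the receptor of the neuromuscular junction. Of the remaining kinases LMTK2 and AATK stood at 56.1 ± 1.12 and 11.7 ± 2.15 CPM, STYK1 at 1.1, 2.7 and 2.59 CPM, and LTK was silent with 1, 0 and 1 counts.

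**Figure D2:**
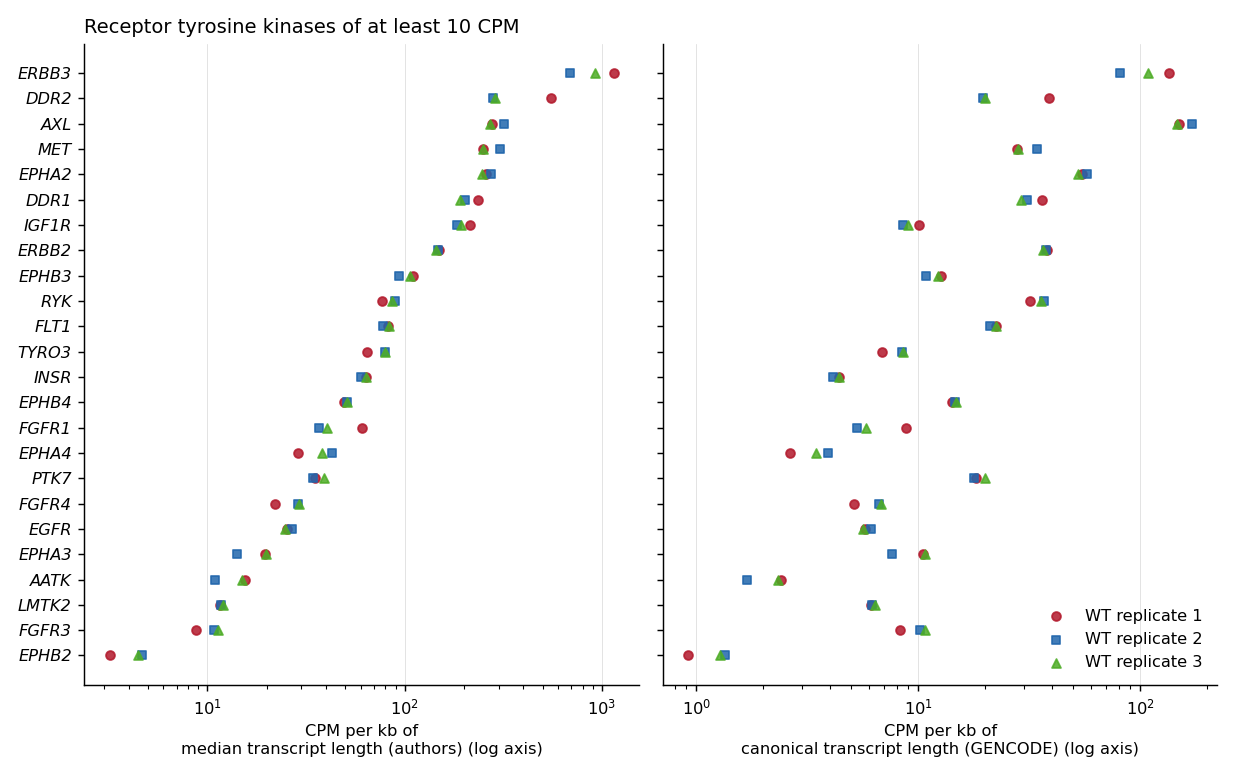
Levels of the 24 receptor tyrosine kinases with a mean of at least 10 CPM, in CPM per kb on log axes, by the median transcript length listed by the authors (left) and by the canonical length of GENCODE 44 (right); each symbol is 1 library. ERBB3 is first on the left and AXL on the right, and EGFR lies near 25.8 on the left and 5.82 on the right.

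Of 30 ligands of these receptors, AREG was not analysed here, 22 of the other 29 were detected and 14 reached 10 CPM. Over all listed protein-coding genes these shares were 81.9% and 59.0%. TGFA, the EGFR ligand TGFα, was the highest ligand both in CPM (571, 692 and 699) and per kb of median length (805 ± 88.2). PDGFA stood at 281, 196 and 217 CPM and FGF2 at 129, 129 and 118 CPM. VEGFB was highest in replicate 1, at 135, 75.8 and 83.8 CPM, and PDGFC and PTN, which encodes pleiotrophin, stood at 49.4 ± 6.11 and 97.1 ± 6.55 CPM. EGF itself had 4.24, 4.37 and 5.29 CPM and HBEGF 7.53, 9 and 8.25 CPM. NRG1, the neuregulin bound by ERBB3, stood at 28.7, 55.1 and 35.6 CPM, with replicate 2 the highest. GAS6, the AXL ligand, was nearly the same in each library at 15.3, 15.4 and 15.4 CPM. HGF, the ligand of MET, had 2, 9 and 11 counts, and IGF1, IGF2, EPGN and NRG3 had at most 1 count in a library. VEGFA, which drives vessel growth, stood at 166, 63.7 and 58.4 CPM, so that replicate 1 was at 2.71 times the mean of the others.

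Of 21 genes often altered in glioblastoma, CDKN2A, CDKN2B, CDKN2C and MGMT were not analysed here. The other 17 were detected, against 81.9% of all listed protein-coding genes. The cell cycle kinases CDK6 and CDK4 stood at 375, 507 and 465 CPM and 246, 264 and 244 CPM, and MDM2, a ubiquitin ligase, at 337, 393 and 371 CPM. The tumour suppressors RB1 and NF1 were expressed, at 88.4 ± 4.11 and 46.4 ± 3.3 CPM. IDH1 and IDH2, enzymes that make α-ketoglutarate, stood at 148 ± 11.4 and 73 ± 12.2 CPM, and ATRX, a chromatin remodeller, at 159.6 ± 10.5 CPM. TERT, the catalytic subunit of telomerase, was low and even, at 6.44, 6.63 and 6.67 CPM. The PI3K subunits PIK3CA and PIK3R1 stood at 56 ± 3.69 and 45.7 ± 5.33 CPM, and MDM4, a relative of MDM2, at 128, 79.3 and 84.3 CPM. Levels of mRNA say nothing about mutations in these genes. MYCN differed between the libraries, at 15.5, 8.84 and 21.4 CPM, while MYC was even at 35.2, 34.6 and 33.6 CPM.

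The genes around CDKN2A on the short arm of chromosome 9 were read individually, since this region is often deleted in glioblastoma. Of the 20 listed protein-coding genes nearest to it, 10 on each side, 16 were detected and 13 reached 1 CPM. The share detected is near that of all listed protein-coding genes, and genes without a count in the series are not among the 20. MTAP, whose annotated end lies 30.1 kb from CDKN2A and which encodes an enzyme of methionine salvage, had 5021, 5819 and 6087 counts, or 141, 137 and 150.4 CPM. KLHL9, on the same side, stood at 89.8 ± 5.14 CPM, and FOCAD at 82.7 ± 1.36 CPM. Farther out on that side, MLLT3, RPS6 and DENND4C stood at 42.3 ± 2.46, 1219 ± 142 and 63.7 ± 4.01 CPM, while SLC24A2, ACER2 and IFNE had 1.35 ± 0.823, 0.729 ± 0.217 and 0.286 ± 0.129 CPM. On the other side DMRTA1, a transcription factor gene 451.5 kb away, had 587, 391 and 490 counts, and ELAVL2, which encodes an RNA-binding protein, had 536, 769 and 803. Farther out on this side, PLAA, CAAP1, IFT74 and C9orf72 stood at 79.2 ± 5.52, 41.2 ± 1.35, 22.5 ± 2.31 and 18.9 ± 1.6 CPM, while MOB3B had 8, 3 and 5 counts and TEK 5, 9 and 15. The silent neighbours were IFNB1, TUSC1 and LRRC19, each with at most 1 count in a library. Expression was thus measured on both sides of CDKN2A.

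Genes of the oligodendrocyte lineage were expressed in part. Of 12 members, 10 were detected, 6 reached 10 CPM and 4 reached 100 CPM. The shares over all listed protein-coding genes were 81.9%, 59.0% and 15.3%. SOX10 (chromosome 22, 37970686 to 37987422, hg38), a transcription factor of oligodendrocytes, Schwann cells and melanocytes, had 193, 168 and 185 CPM. CNP, a myelin enzyme, stood at 246, 313 and 316 CPM and MAG, a myelin adhesion protein, at 117, 65.8 and 82.5 CPM. CSPG4, the NG2 proteoglycan of oligodendrocyte precursors, was the most counted and, of those above 10 CPM, the least even, at 732, 291 and 462 CPM. Without replicate 1 its mean was 377 CPM. OLIG2, the lineage transcription factor, was lower at 12.8, 12.4 and 16.3 CPM, and its relative OLIG1 had 0.365, 0.4 and 0.865 CPM. Among the myelin genes MBP had 6.66, 5.69 and 6.55 CPM, MOG had 3, 6 and 9 counts, and MOBP had none, so that CNP and MAG were expressed while MOBP was silent and MOG was near the floor.

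Astrocyte markers were split. Among 12 members, 9 were detected, 8 reached 1 CPM and 6 reached 10 CPM. Over all listed protein-coding genes, 81.9% were detected and 59.0% reached 10 CPM. S100B, a calcium-binding protein of astrocytes and Schwann cells, stood at 240.1, 145 and 205 CPM and FABP7, the fatty acid-binding protein of radial glia, at 81.7, 41.5 and 65.9 CPM. NFIB and GLUL, a factor of glial development and the enzyme that makes glutamine, stood at 94.2 ± 1.37 and 79.9 ± 7.28 CPM. GFAP, the filament protein by which astrocytes are defined, had only 3, 11 and 17 counts (0.0843, 0.259 and 0.42 CPM). AQP4, the water channel of astrocyte endfeet, had 8, 5 and 5 counts, ALDH1L1 had 0, 0 and 2, and the glutamate transporter SLC1A2 had 2, 9 and 10, while its relative SLC1A3 stood at 8.09, 6.93 and 9.26 CPM. GFAP, AQP4, ALDH1L1 and SLC1A2 were thus at or near the floor in these cells. S100B, GLUL, NFIB, FABP7, ALDOC and GJA1 were expressed, and SLC1A3 lay between.

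Of 16 neuronal markers, DCX, NEFM and GAD2 were not analysed here. Of the other 13, 7 were detected, 4 reached 10 CPM and 5 were silent. Over all listed protein-coding genes, 81.9% were detected and 59.0% reached 10 CPM. SYT1, a synaptic vesicle protein, stood at 111, 44.9 and 44.1 CPM and MAP2, a dendrite protein, at 46.1, 19.5 and 27.4 CPM, and both were highest in replicate 1. Without that library their means were 44.5 and 23.5 CPM. GAD1, which makes GABA, stood at 27, 19.9 and 22.8 CPM. The synaptic genes SNAP25 and SYP stood at 9.53, 10.6 and 12.1 CPM and 3.09, 1.86 and 1.9 CPM. RBFOX3, the neuronal nuclear antigen NeuN, had no count, NEFL, NEFH and STMN2 had 2 counts or fewer in each library, and ELAVL4 had 3, 2 and 2. These markers therefore did not stand or fall together.

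**Figure D3:**
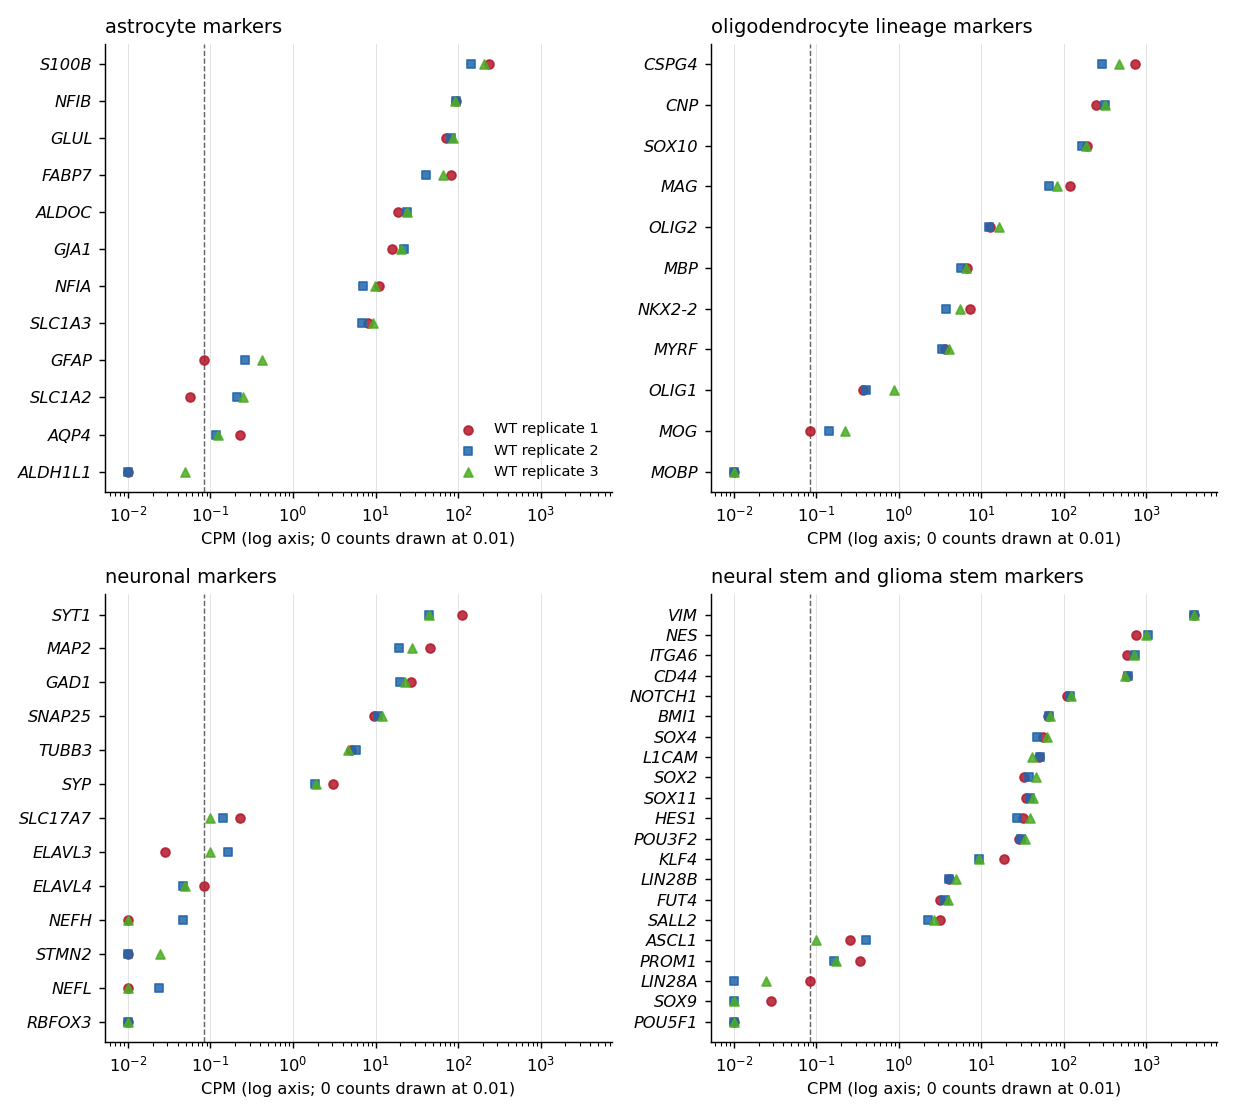
Levels of markers of astrocytes, oligodendrocyte lineage, neurons and stem cells in CPM on log axes; each symbol is 1 library, a dashed line marks 0.0843 CPM, the worth of 3 counts in the smallest library, and genes without a count are drawn at 0.01. In each panel some markers lie above 10 CPM while others, such as ALDH1L1, MOBP, RBFOX3 and SOX9, lie at or below the line.

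Since SOX10, ERBB3 and S100B are shared with the peripheral glia and the neural crest, 22 genes of Schwann cells and neural crest were added after the values had been seen, so that their counts carry no weight of their own. Of these, 21 were detected and 17 reached 10 CPM. CDH19, a cadherin of Schwann cells, stood at 226, 158 and 182 CPM and PMP22, a peripheral myelin protein, at 194, 228 and 221 CPM. NGFR, the low-affinity neurotrophin receptor, stood at 88.6, 119 and 102 CPM, and MIA, a secreted protein of cartilage and melanoma, at 108, 62.1 and 69.2 CPM. The neural crest transcription factors FOXD3, PAX3 and TFAP2A were lower, at 2.67 ± 0.645, 2.05 ± 0.319 and 11.7 ± 1.38 CPM, and TFAP2B had 9, 1 and 2 counts. MITF, the transcription factor of pigment cells, stood at 35.7, 36 and 44.9 CPM, but of 6 pigment genes, also added later, only TYRP1 and PMEL reached 1 CPM, at 6.07, 3.08 and 3.71 and 1.46, 0.823 and 1.14 CPM. TYR, the key enzyme of melanin synthesis, had 4, 0 and 0 counts and MLANA had 3, 0 and 0, all of them in replicate 1.

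Of 23 stem cell markers, MSI1 and NANOG were not analysed here, 18 of the other 21 were detected and 13 reached 10 CPM, shares near the 81.9% and 59.0% of all listed protein-coding genes. VIM led the list, as described above, followed per kb of median length by CD44, a hyaluronan receptor (818 ± 37 CPM per kb), and ITGA6, a laminin receptor subunit (695 ± 78.5). NES, the intermediate filament nestin, stood at 746, 1049 and 1004 CPM and was lowest in replicate 1. SOX2, a transcription factor of neural stem cells, stood at 32.7, 38.3 and 46.2 CPM and POU3F2 at 29, 29.9 and 33.6 CPM. NOTCH1 and BMI1 stood at 117 ± 6.61 and 66.1 ± 1.71 CPM. PROM1, which encodes the surface marker CD133, had only 12, 7 and 7 counts, and SOX9 was silent with 1, 0 and 0, as was POU5F1 with no count. LIN28B, an RNA-binding protein of embryonic cells, had 4.1, 4.04 and 4.97 CPM, while LIN28A had 3, 0 and 1 counts.

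Each list of genes used to mark the proneural, classical and mesenchymal subtypes of glioblastoma had detected members. Of all listed protein-coding genes, 81.9% were detected and 59.0% reached 10 CPM. Of the proneural genes 8 of 9 analysed were detected and 5 reached 10 CPM, of the classical genes 10 of 10 were detected and 9 reached 10 CPM, and of the mesenchymal genes 15 of 16 were detected and 13 reached 10 CPM. Their median levels were 13.8, 35.9 and 107.2 CPM. The lists differ in gene length and share some genes with other lists, so these medians do not rank the subtypes. Among the proneural genes TCF4 and NCAM1, a transcription factor and an adhesion protein, stood at 78.8 ± 5.82 and 34.1 ± 1.42 CPM, and DLL3, a Notch ligand, was silent with 1, 1 and 3 counts. Among the classical genes AKT2, a kinase below PI3K, and JAG1, a Notch ligand, stood at 115 ± 3.9 and 50.6 ± 3.12 CPM, and SMO and GLI2 of the Hedgehog pathway at 26 ± 1.85 and 30.2 ± 0.974 CPM. Among the mesenchymal genes TGFBI, an adhesion protein induced by TGFβ, and WWTR1, a coactivator of the Hippo pathway, stood at 515 ± 21.5 and 299 ± 37.3 CPM. Of the same list FN1, which encodes fibronectin, stood at 1596, 1065 and 1147 CPM, TNC, tenascin C, at 913, 793 and 814 CPM and TIMP1, an inhibitor of metalloproteinases, at 228, 168 and 192 CPM. CHI3L1, a marker often used for this subtype, was silent with 2, 0 and 0 counts.

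A list of 20 matrix genes was added after the values had been seen, so that its 17 members of at least 100 CPM restate how it was chosen. THBS1 was the most counted, at 1367, 3006 and 2081 CPM, with the lowest level in replicate 1. Of the list above 10 CPM, only LAMA4, a laminin chain, had a larger coefficient of variation, at 593, 263 and 395 CPM, with the highest level in replicate 1. THBS2, a relative of THBS1, stood at 1953, 1191 and 1506 CPM, with the opposite order of libraries. TIMP3, which holds back metalloproteinases in the matrix, stood at 1488, 1166 and 1318 CPM. The laminin chains LAMB1 and LAMC1, which form basement membranes, stood at 792 ± 105 and 671 ± 114 CPM, the collagen IV chains COL4A1 and COL4A2 at 322 ± 16.1 and 679.6 ± 34.2 CPM, and SPARC, which binds collagen, at 578, 612 and 695 CPM. Among the fibrillar collagen genes COL11A1, which is outside the lists, stood at 1052 ± 141 CPM, COL5A1 at 91.3 ± 6.78 CPM and COL1A2 at 27.1 ± 8.36 CPM, while COL1A1 and COL3A1 had 1.52, 1.86 and 1.85 CPM and 0.393, 0.118 and 0.148 CPM.

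Markers of other cell types, such as those found beside tumour cells in a glioblastoma, were mostly low. Of 44 markers of epithelium, fibroblasts and mural cells, endothelium, and blood and microglia, 10 were not analysed here, 20 of the other 34 were below 1 CPM and 11 were silent. For comparison, 12148 of all 16508 listed protein-coding genes reached a mean of 1 CPM, and 2209 were silent. The blood and microglia list had 7 members analysed, whose levels summed to 0.534, 0.705 and 0.371 CPM. PTPRC, the pan-leukocyte antigen CD45, had 1 count in each library, as had the microglial gene TMEM119. LYZ, lysozyme, was the only one of the 7 detected, with 11, 21 and 12 counts. ITGAM, CD79A and P2RY12 had 3 counts or fewer in each library, and AIF1, CX3CR1, CD3E, MS4A1, HBB, HBA1, HBA2 and ALAS2 were not analysed here. The endothelial genes CDH5 and CLDN5 had at most 1 count, and EGFL7 was the only endothelial marker above 1 CPM, at 16.8, 11.8 and 13.4 CPM. Of the epithelial genes, CDH1, EPCAM, CDH3 and KRT19 had 2 counts or fewer in each library, whereas the keratin gene KRT18 stood at 146, 154 and 137 CPM and its usual partner KRT8 at 16.4, 14.6 and 13.2 CPM. KRT7 stood at 6.14 ± 1.26 CPM and KRT14 at 1.91, 4.87 and 4.3 CPM, ESRP1, an epithelial splicing factor, at 5.06, 0.846 and 1.26 CPM with its level highest in replicate 1, and KRT5 was not analysed here. Of the mural and fibroblast genes, COL1A2, LUM and DCN reached 10 CPM, at 36.7, 21.4 and 23.2 CPM for the first and 16.6 ± 3.31 and 11.3 ± 1.51 CPM for the others, followed by ACTA2, smooth muscle actin, at 9.16 ± 1.12 CPM. RGS5, a pericyte gene, stood at 10.7, 2.49 and 3.38 CPM.

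Of 44 genes restricted to other lineages (liver, pancreas, muscle, heart, skin, lung, glands, testis and eye), 18 were not analysed here. The other 26 had at least 1 count in the series, and of these 18 were silent and 4 were detected. Of all 16508 listed protein-coding genes, 2209 were silent and 81.9% were detected. ALB, the liver protein albumin, had 0, 1 and 0 counts, MYH7, a cardiac myosin, had 0, 0 and 1, and CYP3A4, a liver cytochrome, had none. Counting error alone cannot tell such levels from 0. Of the other silent genes, FGB, TTR, APOA2 and GCG belong to liver and pancreas, DES and CKM to muscle, SFTPC to lung, TG to the thyroid, NPHS1 to kidney, TNP1 and ACR to testis and SAG to the eye, each with 3 counts or fewer in every library. Not analysed here were FGA, INS, PRSS1, CELA3A, MYOD1, MYOG, MYH1, TNNT2, NPPA, KRT1, SFTPB, GH1, PRL, UMOD, PRM1, PRM2, CRYAA and CRYGD. The detected genes were SERPINA1 (28, 20 and 19 counts), KRT10 (20.5, 20.5 and 22.4 CPM), FLG (10.5, 20.8 and 14.1 CPM) and PMEL. FLG encodes filaggrin, a protein of the outer skin, and KRT10 a keratin of the same layer, and these were the only genes of the list to reach 10 CPM.

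PARP3 and the genes of related proteins were expressed in the WT libraries. PARP3 (chromosome 3, 51942345 to 51948867, hg38), which adds single ADP-ribose units to proteins and to DNA ends, had 1273, 942 and 995 counts, or 35.8, 22.1 and 24.6 CPM. It was highest in replicate 1, and without that library its mean was 23.4 CPM. It took place 6442 among the protein-coding genes per kb of median length. Of 17 PARP family genes, PARP15 was not analysed here and the other 16 were all detected, against 81.9% of all listed protein-coding genes. PARP1, the main DNA damage sensor of the family, was first both in CPM (378, 538 and 540.0) and per kb of median length (864 ± 166), where PARP3 was at 26.4 ± 6.99. PARP4, PARP2 and PARP10 stood at 102 ± 3.14, 40 ± 6.63 and 32.2 ± 3.01 CPM. TIPARP and the tankyrases TNKS and TNKS2 stood at 121 ± 6.94, 77.4 ± 11.7 and 102 ± 10.3 CPM. The H3K9 methyltransferase genes EHMT2 and EHMT1, which encode G9a and GLP, stood at 125, 112 and 120.2 CPM and 72.2, 67.3 and 74.9 CPM, and WIZ, their zinc finger partner, at 19.1, 15.3 and 16.4 CPM. The HP1 proteins CBX3, CBX1 and CBX5, which bind methylated H3K9, stood at 299 ± 35.6, 165 ± 28.4 and 279.9 ± 12.9 CPM, ZNF644, a partner of G9a, at 196 ± 4.52 CPM and SETDB1, another methyltransferase, at 66 ± 13.2 CPM. All 11 members of that list were detected, against the same 81.9%. SUV39H1 and SUV39H2 were lowest in replicate 1, at 25.3, 39.6 and 36.2 and 29.2, 50.4 and 47.4 CPM.

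Of 19 hypoxia genes, 17 were detected and 13 reached 10 CPM, against 81.9% and 59.0% of all listed protein-coding genes. HIF1A, the oxygen-regulated subunit of HIF-1, was high and even, at 682, 703 and 677 CPM. ARNT, its partner subunit, stood at 56 ± 3.14 CPM, while EPAS1, which encodes HIF-2α, had 12.8, 7.88 and 8.55 CPM. SLC2A1, the glucose transporter GLUT1, stood at 202, 306 and 231 CPM. Of the NDRG family, NDRG1 stood at 123, 74.1 and 88.8 CPM, NDRG3 at 72.4, 75.3 and 76.8, NDRG4 at 15.9, 22.2 and 23.7 and NDRG2 at 5.37, 5.99 and 7.39 CPM. RUNX3, a transcription factor, was silent with 1, 2 and 2 counts, as was HIF3A, and CA9, a carbonic anhydrase induced by low oxygen, had 9, 31 and 22 counts.

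Among 19 tubulins and microtubule proteins, 17 were detected, against 81.9% of all listed protein-coding genes. TUBA1B and TUBB, the main α- and β-tubulins of dividing cells, stood at 613, 1332 and 1172 CPM and 722, 1337 and 1157 CPM, and STMN1, which destabilises microtubules, at 534, 924 and 887 CPM. TUBA1C stood at 245, 476 and 395 CPM, TUBB4B at 363, 678 and 597 CPM and TUBB6 at 63.6, 159.7 and 128 CPM. TUBB3, the neuronal β-tubulin, had 5.03, 5.85 and 4.64 CPM, and TUBB4A was silent. Tubulin genes resemble each other closely, so reads may be lost or shared between them. Every α-, β- and γ-tubulin of the list with a mean over 10 CPM was lowest in replicate 1.

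The spread between the replicates was small for most genes and far larger than counting error for abundant ones. Over the 9977 genes with a mean of at least 10 CPM, the median coefficient of variation (SD over mean) was 9.76%. Genes between 10 and 100 CPM had a median of 9.75% where counting error alone is 2.63%, and those between 100 and 1000 CPM had 9.71% against 1.23%. Most of this was replicate 1. From 2 libraries at a time, the median over genes of at least 10 CPM was 3.83% without replicate 1. It was 9.70% without replicate 2 and 11.7% without replicate 3. Between replicates 2 and 3 the medians of these classes were 3.99% and 3.52%. By pairs, the median absolute log2 ratio of CPM was 0.24 between replicates 1 and 2, 0.20 between 1 and 3, and 0.08 between 2 and 3. The pairs had 283, 136 and 8 genes that differed by over 2-fold. The biological coefficient of variation common to all genes, estimated by edgeR, was 17.4%, and 7.14% without replicate 1. The chi-square of the counts per degree of freedom was taken over genes with at least 10 counts summed over a pair. It was 93.7, 64.3 and 10.9 for these pairs, so that no library was a second copy of another.

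**Figure D4:**
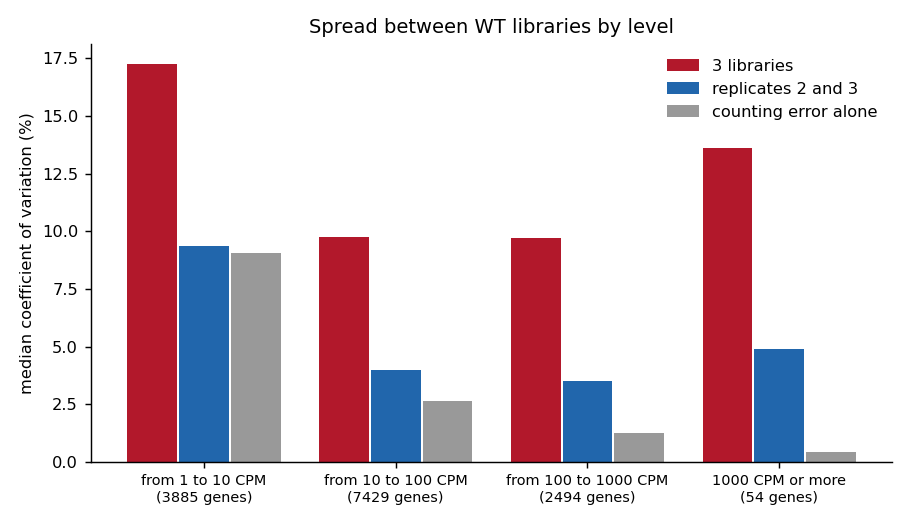
Median coefficient of variation of CPM, in percent, for genes grouped by mean level, over the 3 WT libraries, over replicates 2 and 3 alone, and for counting error alone; bars start at 0 and carry no error bars. Between 10 and 100 CPM the bars stand at 9.75%, 3.99% and 2.63%. They rest on 3 libraries, on 2 libraries and on a calculated value, so their heights are not strictly like measures.

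The protein-coding genes of largest coefficient of variation above 10 CPM were DDIT3, BEST1, HERPUD1, GPNMB, GDF15, AKNA, CHL1, TRIB3, DNAJB9 and CRELD2, all 10 of them highest in replicate 1. DDIT3, a transcription factor that promotes cell death in unresolved endoplasmic reticulum stress, stood at 214, 24 and 26.2 CPM, so that replicate 1 was at 8.53 times the mean of the others. HERPUD1, which takes part in the removal of misfolded proteins, stood at 287, 45.4 and 47.5 CPM, and TRIB3, a pseudokinase induced by the same stress, at 417, 86.5 and 84.2 CPM. GDF15, a stress-induced secreted factor, stood at 169, 23.9 and 36 CPM. GPNMB, a lysosomal glycoprotein, and CHL1, a neural adhesion protein, also differed between replicates 2 and 3, at 30.4, 3.9 and 6.72 CPM and 29.1, 3.48 and 8.3 CPM. Of the 25 most variable protein-coding genes 24 were highest in replicate 1, and the exception was EGR1, an early-response transcription factor, at 8.15, 6.32 and 31.4 CPM. Of 9744 protein-coding genes above 10 CPM, 82 had a coefficient of variation over 50%.

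This pattern was followed with 22 endoplasmic reticulum stress genes, a list drawn up after these values had been seen and so not independent of them. All 22 were highest in replicate 1, and the 21 above 10 CPM had a median ratio of replicate 1 to the mean of the others of 3.24, against 0.994 over all 9977 genes. PDIA4 and CALR, which help proteins fold in the endoplasmic reticulum, stood at 1892, 615 and 689.7 CPM and 1811, 839 and 908 CPM. HSPA5, the chaperone BiP, stood at 2464, 612 and 667 CPM, with a mean of 639.7 without replicate 1. HYOU1, another chaperone, stood at 1093, 284 and 297 CPM and XBP1, a transcription factor of the response, at 347, 149 and 147 CPM. ATF4, which acts upstream of DDIT3, differed less, at 602, 383 and 309.9 CPM, which is 1.74 times the mean of the others, and ATF3 stood at 28.3, 22.3 and 20.1 CPM.

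Genes of the cell cycle lay on the other side. Of 26 members, 25 reached 10 CPM and 24 of these were lowest in replicate 1, with a median ratio of 0.54, whereas replicate 1 was lowest for 46.1% of all 9977 genes. PCNA, the sliding clamp of DNA polymerase, stood at 179, 492 and 422 CPM, and MCM6, a subunit of the replicative helicase, at 145, 361 and 332 CPM. Its partners MCM4, MCM5 and MCM7 were also lowest in replicate 1, at 217, 486 and 433 CPM, 191, 382 and 349 CPM and 498, 973 and 871 CPM, and BIRC5, survivin, stood at 174, 343 and 316 CPM. MKI67, which encodes Ki-67, stood at 136, 211 and 219.7 CPM and TOP2A, topoisomerase II, at 583, 870.1 and 899 CPM. CDKN1B, an inhibitor of the cycle, was the exception, with its highest level in replicate 1, at 93.9, 74.4 and 82.5 CPM. CCND1, cyclin D1, stood at 707, 1195 and 969 CPM, while CCND2 was silent with 2, 2 and 1 counts. Outside the list, TXNIP, which binds thioredoxin, was lower in replicate 1 than in the others at 7.36, 39.2 and 27 CPM, as were CCNE2, cyclin E2, at 22.6, 87.3 and 70.9 CPM and CLSPN, a replication checkpoint protein, at 39.3, 116 and 102 CPM. Among 13 tubulins and microtubule proteins above 10 CPM, 11 were lowest in replicate 1, with a median ratio of 0.579.

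All 13 mitochondrial mRNAs were highest in replicate 1, which was highest for 43.6% of all 9977 genes, with a median ratio of 1.71 for the 7 above 10 CPM, and so were MALAT1 and NEAT1, at 2.05 and 2.15 times the mean of the others. Over all genes above 10 CPM, 109 were over 2-fold higher and 73 over 2-fold lower in replicate 1 than in the mean of the others. What set replicate 1 apart was not tested.

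**Figure D5:**
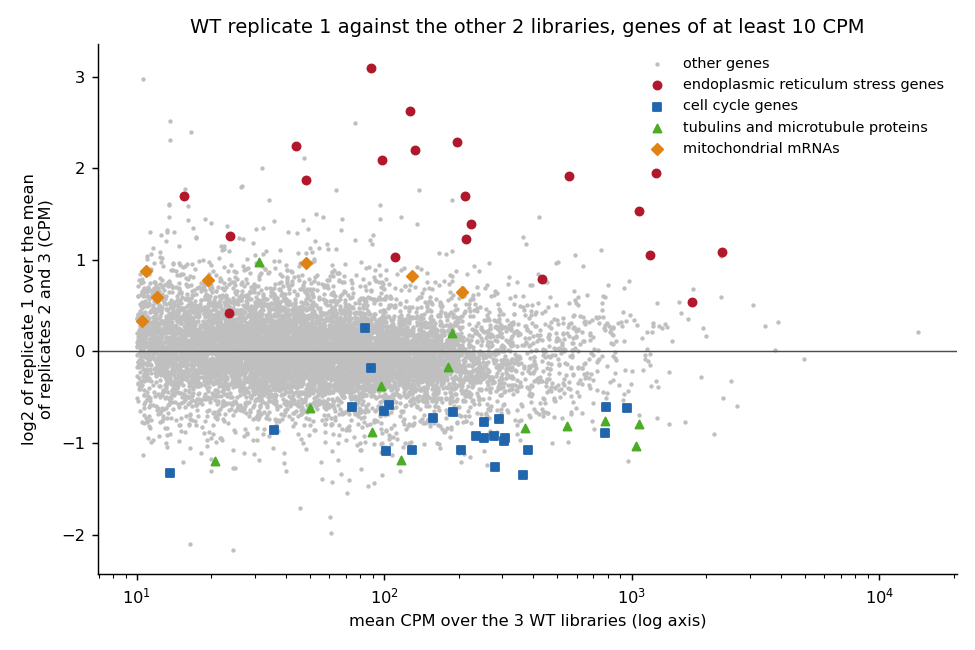
Log2 ratio of replicate 1 to the mean of replicates 2 and 3 (CPM) for the 9977 genes with a mean of at least 10 CPM, against the mean level on a log axis; coloured symbols mark genes of 4 lists and grey points all others. The 21 endoplasmic reticulum stress genes lie above 0, 24 of 25 cell cycle genes lie below 0, and the 7 mitochondrial mRNAs lie above 0.

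Reference genes used to scale measurements of single genes were not all even. Of 14 members, 9 were lowest in replicate 1, as were 46.1% of all genes above 10 CPM. GAPDH had a coefficient of variation of 3.85%, ACTB of 13.9%, HPRT1 of 26.6%, PGK1 of 28.7% and TFRC of 34.6%. B2M and RPLP0 had 6.3% and 8.63%, and TBP had 5.54%. HPRT1, a purine salvage enzyme, stood at 20, 34.6 and 30.8 CPM, and TFRC, the transferrin receptor, at 217, 452 and 394 CPM. The most even protein-coding genes with a mean of at least 100 CPM were RETREG2, at 128, 129 and 128 CPM, VEZF1, at 115, 114 and 115 CPM, and ARFGEF1, at 113, 112 and 112 CPM, whose coefficients of variation were 0.294%, 0.344% and 0.365%, below 1.4%, 1.48% and 1.5% for counting error alone. RETREG2 acts in turnover of the endoplasmic reticulum, VEZF1 is a zinc finger transcription factor, and ARFGEF1 acts in vesicle traffic.

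Levels were also read by chromosome, for detected protein-coding genes and in CPM. The 355 genes of chromosome 20 had the highest median, 56.4 CPM, followed by 39.7 CPM for the 630 genes of chromosome 7 and 38.1 CPM for the 1376 genes of chromosome 1. The lowest medians were 18.1 CPM for the 990 genes of chromosome 19 and 21.5 CPM for the 498 genes of the X chromosome. The other chromosomes analysed lay between 26.6 and 37.3 CPM. These medians are not per length, and the number of copies of each chromosome was not measured here.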

How the data were processed

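Libraries were made from RNA of WT and PARP3-disrupted LN229 cells, and the 3 WT libraries are described. The labels name polyA RNA, while the protocol describes total RNA depleted of ribosomal RNA and a stranded single-end library. The authors trimmed reads with cutadapt 1.10, removed those matching ribosomal RNA with Bowtie2 2.2.8, aligned to hg38 with STAR 2.5.3a and counted genes of Ensembl 91 with HTSeq 0.6.1p1 in union mode, which drops reads that overlap several genes. Whether the counting used strand, and how it treated reads that match several places, is not given in the sources used here. The deposited counts are raw reads per gene, and the median transcript length stands beside them. Not used were 12 columns of normalized values per sample and 3 columns of the authors' comparison, which hold a log2 ratio, a p-value and an adjusted p-value.

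CPM was the count divided by the library's total (35582892 to 42539536 counts). Canonical lengths, positions and the comparison of 7SL copies came from GENCODE 44. The floor was 3 counts in a library. The SD covers 3 libraries, and counting error is the Poisson value. The common biological coefficient of variation was estimated with edgeR 4.0.16 (R 4.3.3) over genes with at least 10 counts. This estimate was tested on simulated data. Other steps used Python 3.11.15 with pandas 2.3.3. Alternatives were other scalings, floors and lengths, DESeq2 1.42.0 and leaving out each library. Genes were named by rule: the 12 most counted, the 12 highest per kb, the 10 most variable, in each list the 6 members of highest level per kb above 1 CPM and the silent members, the 20 neighbours of CDKN2A, PARP3, and the 5 genes nearest to EGFR. Names outside it were chosen after their values were seen. The 31 gene lists were chosen with earlier results of these data known, and 4 lists (Schwann cell and neural crest, pigment, endoplasmic reticulum stress, matrix) were added after seeing the values. Some list members are counted but not reported by name here.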

Additional observations from a re-analysis of the deposited data

How the results depend on the processing

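Leaving out 1 library at a time gave 19205 to 19262 detected genes against 18723, 13623 to 13637 detected protein-coding genes against 13514, 34 receptor tyrosine kinases above 1 CPM each time, and 18 to 20 silent lineage genes against 18. Protein-coding genes held 96.8% of the counts, but 93.4% after division by the median transcript length and 86.0% after division by the canonical length, since RN7SL2, with its 300 bases, then weighs more. The median coefficient of variation was 9.76%, rose to 29.0% over every gene with a count, and lay between 3.83% and 11.7% when 1 library was left out, the lowest without replicate 1. The biological coefficient of variation was 17.4% by edgeR and 9.78% as the median of DESeq2's gene-wise values, which is another summary of the spread, and lay between 7.14% without replicate 1 and 22.4% without replicate 3. Of 453 levels of 151 named genes under other scalings, 442 moved by less than 1 SD. Leaving out 1 library took levels to between 0.285 and 1.36 times their value, the lowest being DDIT3, at 88.0 CPM over 3 libraries and 25.1 CPM without replicate 1. With the canonical length only 26 of 151 levels per kb moved by less than 1 SD, so orders between genes depend on the length used. The canonical length was chosen after seeing the data. Levels under 3 counts, worth up to 0.0843 CPM, were not detectable at this depth. No paired analysis was possible because only 1 group is described and no test was made.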
